A study of Mus musculus with 6 samples.

Results

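Osteocytes, the cells embedded within bone, form from osteoblasts that bury themselves in matrix, and as they mature they extend processes, control mineral around their lacunae and secrete factors that act on the kidney. The 10 genes described here, the osteocyte maturation and phosphate genes, were chosen by symbol from the 39179 genes in the deposited expression table. Earlier results of these data were known when they were chosen. Pdpn and Cd44 encode surface glycoproteins, Tnfrsf19 a receptor of the TNF receptor superfamily and Irx5 a homeobox transcription factor. Dmp1 and Mepe encode acidic matrix proteins, Phex a membrane endopeptidase, Fgf23 the phosphate-lowering hormone of osteocytes, and Fam20c and Galnt3 enzymes that modify FGF23 and other secreted proteins. In this pathway, loss of DMP1 or PHEX raises FGF23 and leads to renal phosphate wasting. FAM20C phosphorylates FGF23 and GALNT3 attaches O-linked sugar to it, with opposite effects on its cleavage.

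RNA was sequenced from Ocy454, a mouse osteocytic cell line of which the study used 1 subclone grown from a single cell. All groups had grown to confluence at 33 °C and then stayed at 37 °C for 14 days. For the last 4 h the cells received vehicle, 1 nM PTH 1-34 (an active fragment of parathyroid hormone) or 0.5 µM YKL-05-093, a compound that inhibits the salt-inducible kinases (SIKs), which act below the PTH receptor. The labels give the vehicle as PBS with 25 mM HCl, whereas the study's methods name DMSO as the solvent of compounds for cell culture, so which of them the vehicle cells received is not settled here. Each group had 2 libraries, and the labels name no genetic change in any group. The comparisons ask which of the 10 genes respond to PTH, which respond to the SIK inhibitor, and where the treatments differ.

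Values are deposited RPKM, that is, reads divided by gene length and by the library's total, so levels can be compared between genes. The library totals that the RPKM divides by, recovered from the values, were 17505798 to 27983585 reads. Nearly all of these fell on listed genes, and the paper gives a higher average number of sequenced read pairs per sample. The vehicle libraries stood farther apart than the others: the 2 libraries of a condition differed by a median of 0.31 (absolute log2) in vehicle, 0.09 with PTH and 0.09 with YKL-05-093, over the 11885 tested genes that averaged 50 reads or more. Fold changes are differences in mean log2(RPKM + 0.1) from limma, fitted over all genes that reached 0.5 RPKM in 2 or more of the 6 libraries. A gene was called when its Benjamini-Hochberg adjusted p was under 0.05 and its change was more than 2-fold. The labels do not say whether replicates came from separate cultures, so the p-values measure the spread between these libraries only, and an exact permutation test of 2 against 2 libraries cannot go below 0.333. Of the 10 genes, 8 passed the filter, while Mepe and Fgf23 did not. Exons of these 10 genes overlapped no other annotated gene on either strand.

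The osteocyte label was checked against 11 osteocyte markers. All but 5 of them are among the 10 genes described here, so the check is not independent of the values below. Of the 11 markers, 7 passed the filter, and Sost and Fgf23 had at most 3 reads in any library. The sum of the 11 markers was 323 to 353 RPKM in vehicle, 398 to 431 with PTH and 369 to 374 with YKL-05-093, and the rise came from Pdpn. Without Pdpn the other 10 summed to 270 to 282 RPKM in vehicle, 235 to 260 with PTH and 274 to 281 with YKL-05-093, of which Dstn, a cytoskeletal gene, had 139 to 170 RPKM over the 6 libraries. The 5 markers outside the 10 genes, Dstn among them, summed to 240 and 258 RPKM in vehicle and 236 and 215 with PTH. With YKL-05-093 these 5 summed to 251 and 256 RPKM. Osteoblast markers were abundant, with sums over 9 genes of 996 to 1160 RPKM in vehicle, 1179 to 1430 with PTH and 1203 to 1521 with YKL-05-093. With PTH, Mef2c among the osteocyte markers and Sp7 and Tnfrsf11b among the osteoblast markers were called lower, and Bglap and Bglap2 higher. Sums for chondrocyte, adipocyte, endothelial and muscle markers stayed at or below 3.82 RPKM in every library, with Cdh5, Myod1, Ckm, Cidec and Lep at 0 in all. Within these lists Col2a1 was called higher with PTH (in 9 of 14 settings) and Kdr with YKL-05-093 (in 7 of 14). The calls of Mef2c, Sp7, Tnfrsf11b, Bglap, Bglap2 and Col2a1 were lost without either PTH library, and that of Kdr without vehicle replicate 1 or either YKL-05-093 library. Over the 14 settings, the largest adjusted p from limma ran from 0.141 (Sp7) to 0.876 (Tnfrsf11b). The macrophage and osteoclast list summed to 78.1 to 99.2 RPKM, of which Ctsk had 74.1 to 94.7, while Ptprc and Csf1r stayed at or below 0.0263 and 0.133. The part of these marker levels in the results below was not tested.

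**Figure D1:**
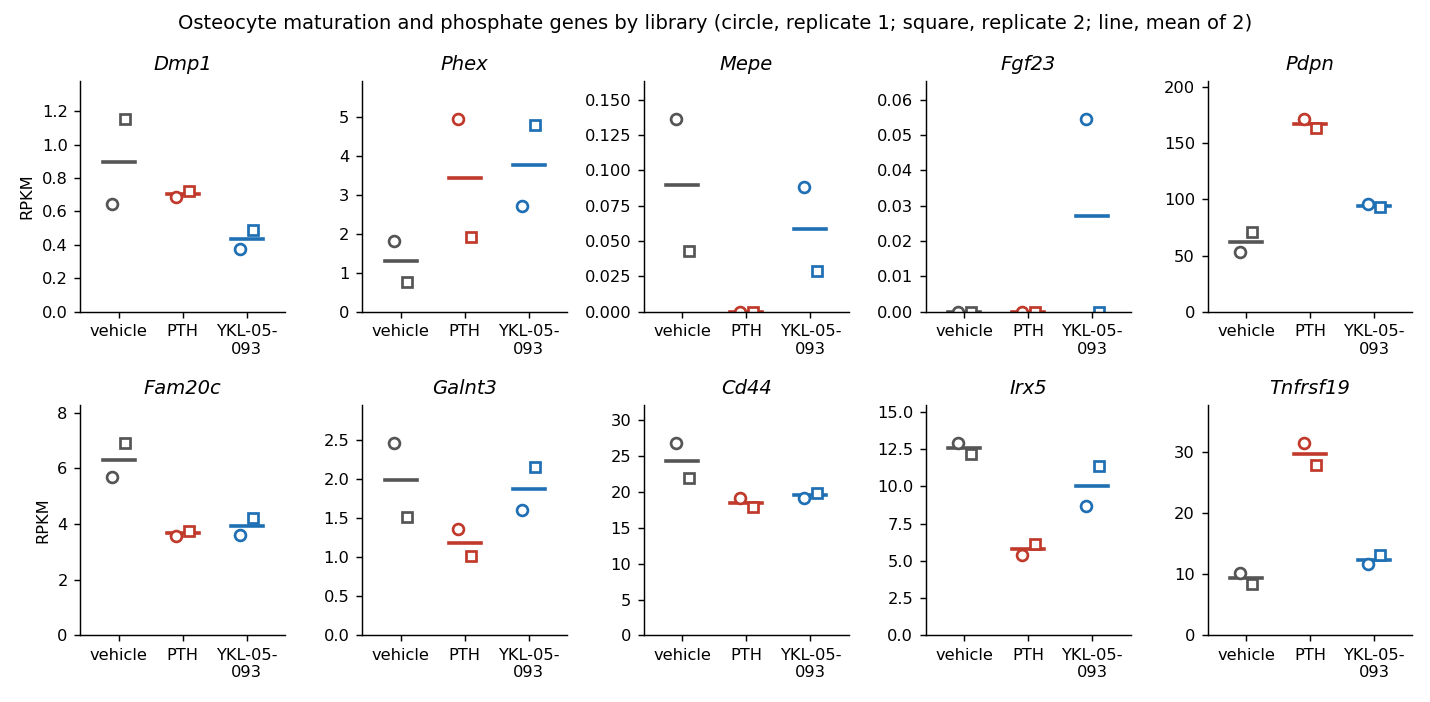
RPKM of the 10 genes (vertical axis, linear and starting at 0, with its own range for each gene) in vehicle, PTH and YKL-05-093 libraries. Circles are replicate 1, squares replicate 2 and lines the mean of 2 libraries; the Pdpn and Tnfrsf19 libraries with PTH lie above all others, whereas the Phex libraries of each condition lie far apart.

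PTH raised Pdpn and Tnfrsf19 and lowered Irx5, and the other 5 tested genes did not pass. In RNA from whole cultures, fewer expressing cells and less RNA per cell cannot be told apart. Thus 2 of 8 tested genes were called higher, against 1.09% of the 14261 genes tested for PTH, and 1 of 8 was called lower, against 0.813%. The genes were chosen with earlier results of these data known, so such shares are given for scale and test no excess. The PTH and vehicle groups did not overlap in 7 of 8 genes, against 43.1% of all genes. YKL-05-093 moved 0 of 8 past the limits in limma, against 0.666% of 14255 genes, and voom on the recovered reads also called 0. At an unadjusted limma p under 0.05 there were 4 (Fam20c, Pdpn, Dmp1 and Phex), against 8.67% of all genes. At the same limit there were 6 for PTH against vehicle, against 13.3% of all genes. Between PTH and YKL-05-093 there were 5, against 22.3%. The YKL-05-093 and vehicle libraries did not overlap in 7 of 8, against 37.8% of all genes. Pdpn, Tnfrsf19, Irx5, Dmp1 and Phex also stand in the study's own lists of regulated genes, which were drawn from these libraries, so their directions are not independent evidence. Dmp1 and Phex were called in no comparison here with the main settings, so for them the result differs from that of the study, which used edgeR.

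Pdpn (ENSMUSG00000028583) encodes podoplanin, a mucin-like membrane protein needed for the growth of osteocyte dendrites. The gene lies on chromosome 4 at 143267431 to 143299564, on the minus strand (GRCm38). It was the most abundant of the 10 genes in every condition, with 53.1 and 71.3 RPKM in vehicle, 171 and 163 with PTH, and 95.8 and 93.1 with YKL-05-093. The 3 conditions did not overlap, with YKL-05-093 between vehicle and PTH. Mean RPKM was 62.2 ± 12.9 (SD, n = 2) in vehicle and 167 ± 5.43 with PTH, a ratio of 2.68, and the log2 fold change was 1.44 (SE 0.20, adjusted p = 0.0147 from limma). With YKL-05-093 the mean was 94.4 ± 1.95 RPKM, and its log2 fold change of 0.62 did not pass (95% interval 0.16 to 1.08, adjusted p = 0.367 from limma). In the direct comparison Pdpn was higher with PTH than with YKL-05-093 by 0.82 on the log2 scale (SE 0.07, adjusted p = 4.43e-07 from limma), which is under the 2-fold limit.

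Tnfrsf19 (ENSMUSG00000060548), also called Troy, encodes a TNF receptor superfamily member without a death domain. It lies on chromosome 14 at 60963875 to 61046490, on the minus strand. Its RPKM was 10.2 and 8.44 in vehicle, 31.4 and 27.9 with PTH, and 11.6 and 13.1 with YKL-05-093. Both PTH libraries stood far above the other 4, and both YKL-05-093 libraries lay above both vehicle libraries. The ratio of means was 3.18 for PTH over vehicle, with a log2 fold change of 1.66 (SE 0.18, adjusted p = 0.0054 from limma). For YKL-05-093 it was 0.40, which did not pass (95% interval -0.01 to 0.81, adjusted p = 0.597 from limma). Tnfrsf19 was the 1 gene of 8 called between the treatments, with 1.26 more on the log2 scale with PTH (SE 0.08, adjusted p = 2.55e-08 from limma), against 1.21% of 14255 genes.

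The call for each of Pdpn, Tnfrsf19 and Irx5 rested on having both PTH libraries. Without PTH replicate 1, the log2 fold change against vehicle was 1.40 for Pdpn (adjusted p = 0.429 from limma), 1.58 for Tnfrsf19 (0.256) and -1.01 for Irx5 (0.547). Without PTH replicate 2 it was 1.47 (0.458), 1.75 (0.191) and -1.21 (0.418). Between PTH and YKL-05-093, Tnfrsf19 likewise had an adjusted p of 0.127 and 0.12 from limma without either PTH library, with log2 fold changes of 1.18 and 1.35. Without the filter on low values, the adjusted p against vehicle was 0.112 for Pdpn, 0.065 for Tnfrsf19 and 0.0925 for Irx5. The fits without 1 library take the lone PTH library to vary as the other group does.

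Pdpn and Tnfrsf19 rose together with PTH, so the 250 bases before their start sites are shown from RefSeq (GRCm38.p6, each read 5′ to 3′ on the gene's strand). Tnfrsf19 has 2 starts in that table, and the inner one lies inside the gene as annotated in GENCODE. The table holds 11 starts for 9 of the 10 genes, all but Irx5.
Pdpn, chr4:143299565-143299814, minus strand: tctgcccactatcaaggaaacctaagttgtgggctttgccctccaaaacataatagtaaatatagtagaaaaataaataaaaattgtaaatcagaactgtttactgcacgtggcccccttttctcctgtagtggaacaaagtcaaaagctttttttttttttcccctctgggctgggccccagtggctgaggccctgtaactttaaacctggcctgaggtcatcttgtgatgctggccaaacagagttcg
Tnfrsf19 outer start, chr14:61046856-61047105, minus strand: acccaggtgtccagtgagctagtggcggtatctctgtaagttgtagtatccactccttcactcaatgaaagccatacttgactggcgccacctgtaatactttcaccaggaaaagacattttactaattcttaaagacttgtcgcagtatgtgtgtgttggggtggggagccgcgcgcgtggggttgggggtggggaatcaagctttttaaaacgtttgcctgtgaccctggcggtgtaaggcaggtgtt
Tnfrsf19 inner start, chr14:61037988-61038237, minus strand: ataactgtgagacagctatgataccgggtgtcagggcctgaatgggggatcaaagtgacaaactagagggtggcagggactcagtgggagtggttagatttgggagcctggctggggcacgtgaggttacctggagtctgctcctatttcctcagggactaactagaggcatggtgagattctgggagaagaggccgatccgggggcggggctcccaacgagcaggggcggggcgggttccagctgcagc
PTH raises cyclic AMP, and cyclic AMP-responsive promoters often hold the element TGACGTCA, so the windows were searched on both strands for these letters and for TGACG, which is part of that element. Matches to these, to the AP-1 motif TGANTCA or to the MEF2 consensus would stand in capitals, and the 3 sequences shown hold none. Over the 11 starts, TGACG was found in 3 (Phex, Fgf23 and Fam20c) and TGACGTCA in 0. Of all 32851 promoters of the same length, 17.8% held TGACG and 1.55% TGACGTCA. The AP-1 and MEF2 motifs were in 0 of the 11, against 6.75% and 2.92% of all promoters. The Pdpn window was 43.2% G and C with 2 CpG, the outer Tnfrsf19 window 50% with 9 and the inner one 59.2% with 8, beside a median of 52.4% G and C over all promoters. The letters GGGCGG, the GC box, occurred 3 times in the inner Tnfrsf19 window, and 32.7% of all promoters held it.

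CD44, the hyaluronan receptor, is a partner of podoplanin at the cell surface and another marker of osteocyte maturation. Cd44 (ENSMUSG00000005087, chromosome 2 at 102811141 to 102901665) had 26.8 and 21.9 RPKM in vehicle, 19.1 and 17.9 with PTH, and 19.2 and 19.9 with YKL-05-093. The vehicle libraries were the highest of the 6, with no overlap, yet neither treatment passed. The log2 fold change was -0.39 for PTH (95% interval -0.81 to 0.04, adjusted p = 0.425 from limma) and -0.31 with YKL-05-093 (-0.73 to 0.11, adjusted p = 0.754). The treatments differed by -0.08 (-0.22 to 0.06). This list of partners and the lists of related genes below were drawn up with earlier results of these data known. Of 12 genes in the list of podoplanin and CD44 partners, 9 were tested. Pdpn and Has2 were called higher with PTH, against 1.09% of all genes, and 0 lower, against 0.813%. Has2, the synthase that makes hyaluronan, had 1.88 and 1.45 RPKM in vehicle, 7.47 and 8.06 with PTH, and 3.59 and 3.14 with YKL-05-093. This was a log2 fold change of 2.17 for PTH (SE 0.18, adjusted p = 0.00217 from limma) and 0.98 with YKL-05-093 (adjusted p = 0.105), and 1.18 between the treatments (adjusted p = 4.97e-07). The median of the 9 was -0.16 for PTH, beside -0.03 over all genes tested.

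Tnfrsf19 was 1 of 15 tested genes among the 26 TNF receptor superfamily genes listed. With PTH 2 of the 15 were called higher (Tnfrsf9 and Tnfrsf19), against 1.09% of all genes, and 1 lower (Tnfrsf11b), against 0.813%. With YKL-05-093 0 were called in either direction, against 0.666%. Tnfrsf9, the costimulatory receptor 4-1BB, had 2.49 and 2.38 RPKM in vehicle, 13 and 12.4 with PTH, and 4.84 and 4.74 with YKL-05-093. Its log2 fold change with PTH was 2.33 (SE 0.17, adjusted p = 0.00148 from limma). Like Tnfrsf19, Tnfrsf9 was also called between the treatments, 1.38 higher with PTH (adjusted p = 7.01e-07 from limma). That call held in 12 of 14 settings and was lost without either PTH library. Tnfrsf11b encodes osteoprotegerin, the decoy receptor for RANKL, and fell from 35.9 and 41.2 RPKM to 19.7 and 17.1 with PTH (log2 fold change -1.06, adjusted p = 0.0263 from limma), and had 21.1 and 28.4 RPKM with YKL-05-093. The median of the 15 tested genes was 0.02 for PTH and -0.18 for YKL-05-093.

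Irx5 (ENSMUSG00000031737), on chromosome 8 at 92357625 to 92376286, encodes an Iroquois homeobox factor, one of a family that patterns limb and other tissues. Its RPKM was 12.9 and 12.2 in vehicle, 5.38 and 6.16 with PTH, and 8.71 and 11.4 with YKL-05-093. Vehicle was highest, PTH lowest and YKL-05-093 between them, without overlap. Vehicle was 2.17 times as high as PTH by the ratio of means, and the log2 fold change was -1.11 (SE 0.16, adjusted p = 0.0179 from limma). For YKL-05-093 it was -0.33, which did not pass (95% interval -0.76 to 0.10, adjusted p = 0.744 from limma). The treatments differed by -0.78 (SE 0.12, adjusted p = 0.000366 from limma), under the 2-fold limit.

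The Iroquois genes form 2 clusters of 3, with Irx3, Irx5 and Irx6 on chromosome 8 and Irx1, Irx2 and Irx4 on chromosome 13. All 3 that passed the filter, from both clusters, were called lower with PTH, against 0.813% of all genes. With YKL-05-093 0 of 3 were called, against 0.666%. Irx3, which lies 555557 bases from Irx5, had 28 and 26.8 RPKM in vehicle, 13.4 and 12.8 with PTH, and 18.7 and 21.5 with YKL-05-093. In log2 fold change this was -1.06 with PTH (adjusted p = 0.0184 from limma) and -0.45 with YKL-05-093 (adjusted p = 0.462), with a direct difference of -0.61 (adjusted p = 5.86e-05). Irx1 had 8.15 and 10.4 RPKM in vehicle, 4.34 and 4.69 with PTH, and 4.02 and 5.05 with YKL-05-093. The Irx1 values of the 2 treatments overlapped, with log2 fold changes of -1.01 (limma adjusted p = 0.0374) for PTH and -1.01 (adjusted p = 0.105) for YKL-05-093 and a direct difference of 0.00 (SE 0.13). The PTH call for Irx1 held in 6 of 14 settings (adjusted p from limma 0.00031 to 0.671) and was lost with median-ratio scaling and without vehicle replicate 2, PTH replicate 1 or PTH replicate 2. For Irx3 and for Irx5 it held in 11 of 14, and it was lost for Irx3 without either PTH library, where the adjusted p reached 0.728. Irx2 stayed at or below 0.365 RPKM, with both vehicle libraries (0.365 and 0.268) above the 4 treated ones (0.0958 to 0.187), and was not tested. Irx4 was at 0 in all libraries and Irx6 at no more than 3 reads. The median log2 fold change of the 3 tested genes was -1.06 for PTH, beside -0.03 over all genes. The study's own lists, drawn from these libraries, also hold Irx1 and Irx3.

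**Figure D2:**
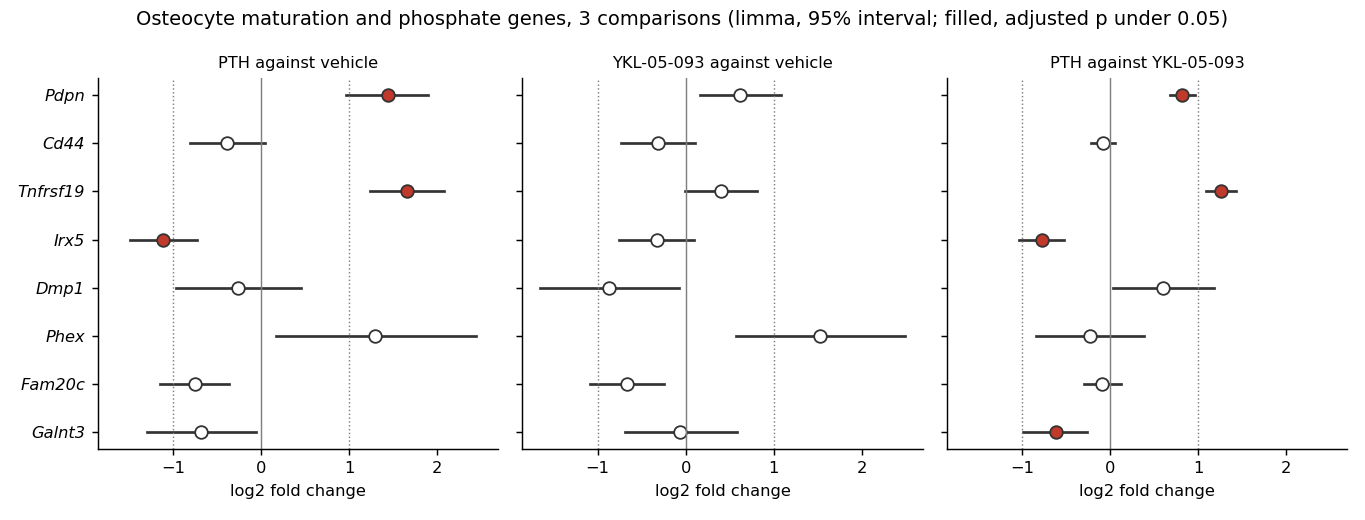
Log2 fold change (horizontal axis) with its 95% interval for the 8 tested genes in the 3 comparisons; filled points have an adjusted p under 0.05 and dotted lines mark a 2-fold change. Pdpn, Tnfrsf19 and Irx5 are filled for PTH against vehicle, none for YKL-05-093, and the intervals of PTH against YKL-05-093 are narrower for most genes.

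Dmp1 (ENSMUSG00000029307) encodes dentin matrix protein 1, an early osteocyte marker that binds mineral. The gene lies on chromosome 5 at 104202613 to 104214102. It was low, with 0.643 and 1.15 RPKM (31 and 89 reads) in vehicle, 0.689 and 0.723 (41 and 38 reads) with PTH, and 0.376 and 0.49 (21 and 28 reads) with YKL-05-093. The vehicle and PTH libraries overlapped, and the YKL-05-093 libraries were the lowest of the 6. For YKL-05-093 the log2 fold change was -0.87, which did not pass (95% interval -1.65 to -0.08, adjusted p = 0.502 from limma). For PTH it was -0.26 (-0.97 to 0.45, adjusted p = 0.789), and 0.12 without vehicle replicate 2, the library with the highest value. The treatments differed by 0.60 (0.03 to 1.18, adjusted p = 0.202 from limma). Mepe (ENSMUSG00000053863), which encodes matrix extracellular phosphoglycoprotein, a late osteocyte marker, lies on the same chromosome at 104325329 to 104338611. It had 4 and 2 reads in vehicle, 0 and 0 with PTH and 3 and 1 with YKL-05-093, so a difference between conditions was not detectable at this depth.

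Dmp1 and Mepe belong to the SIBLING family of integrin-binding matrix phosphoproteins, which sit side by side on chromosome 5 in the order Dspp, Dmp1, Ibsp, Mepe and Spp1. Levels of these neighbours were far apart. Ibsp, bone sialoprotein, had 292 and 314 RPKM in vehicle, 443 and 332 with PTH, and 414 and 587 with YKL-05-093, and Spp1, osteopontin, had 63.1 and 77.3, 90.8 and 75.8, and 61.5 and 66.8. Dspp had at most 3 reads. None of the 3 tested genes (Dmp1, Ibsp and Spp1) was called in any of the 3 comparisons. Spp1 was higher with PTH than with YKL-05-093 by 0.37 in log2 units (limma adjusted p = 0.00678), under the 2-fold limit. Ibsp gave 0.34 for PTH and 0.70 for YKL-05-093 (adjusted p = 0.601 and 0.387 from limma).

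Phex (ENSMUSG00000057457), the X-linked endopeptidase lost in X-linked hypophosphataemia, lies on the X chromosome at 157162075 to 157415312. It had 1.82 and 0.764 RPKM in vehicle, 4.93 and 1.91 with PTH, and 2.72 and 4.8 with YKL-05-093, from 134 to 668 reads per library. All 4 treated libraries lay above both vehicle libraries, though PTH replicate 2 exceeded vehicle replicate 1 only narrowly. The log2 fold change was 1.30 for PTH (95% interval 0.17 to 2.44, adjusted p = 0.303 from limma) and 1.53 with YKL-05-093 (0.57 to 2.49, adjusted p = 0.246). Neither passed, and the treatments differed by -0.23 (-0.84 to 0.39, adjusted p = 0.725), a difference that turned to 0.44 without PTH replicate 2 and to 0.17 without YKL-05-093 replicate 2.

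The spread of Phex between replicates was wide in each condition. Its higher library was 2.39 times the lower one in vehicle, 2.59 times with PTH and 1.76 times with YKL-05-093. On the log2 scale these differences were 1.15, 1.33 and 0.80, where the median gene of at least 50 reads had 0.31, 0.09 and 0.09. Of 11885 such genes, 0.555% had a wider spread in vehicle, 0% with PTH and 0.522% with YKL-05-093. Replicate 1 was the higher library in vehicle and with PTH, and replicate 2 with YKL-05-093, which is also the order of Galnt3, Cd44 and Tnfrsf19. Galnt3 came next for the 3 conditions pooled, with 4.48% of genes wider, and Pdpn, Cd44, Irx5, Fam20c and Tnfrsf19 lay near the middle, with 42.2% to 63.6% of genes wider. The genes with the 6 library values closest to Phex, sought after its spread had been seen, were Enpp6, Col13a1 and Col11a2, at root mean square differences of 0.285, 0.301 and 0.358 in centred log2 values over 6 libraries. Enpp6 had 0.512 and 0.381 RPKM in vehicle, 1.69 and 0.928 with PTH, and 0.999 and 2.11 with YKL-05-093.

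**Figure D3:**
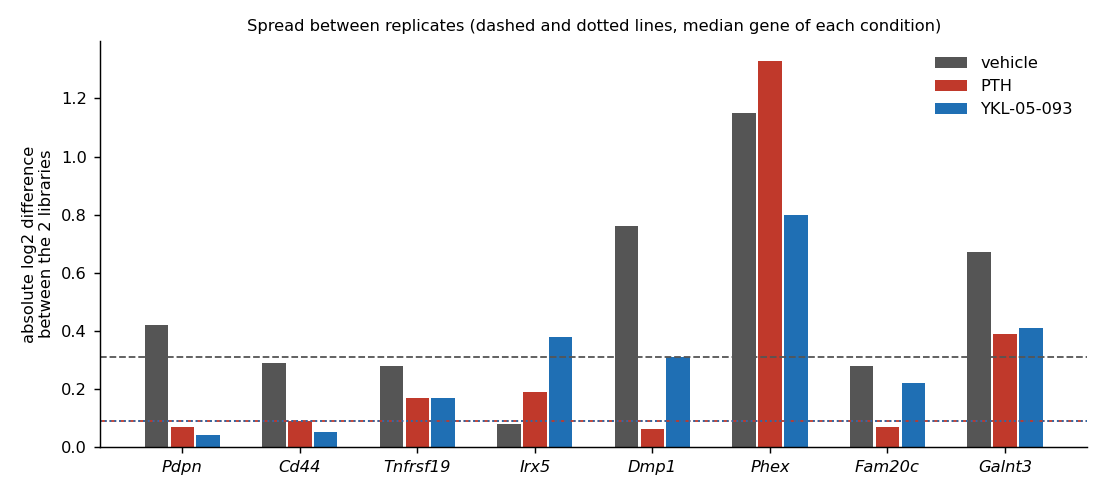
Absolute log2 difference between the 2 libraries of each condition (vertical axis) for the 8 tested genes, as bars for vehicle, PTH and YKL-05-093. Dashed and dotted lines mark the median over 11885 genes (0.31 in vehicle, 0.09 with PTH and with YKL-05-093, where the lines coincide); the Phex bars reach 1.15, 1.33 and 0.80.

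Of the genes that make and modify the hormone, Fgf23 (ENSMUSG00000000182) itself, on chromosome 6 at 127072902 to 127081408, was listed at 0 in 5 libraries and had 2 reads in YKL-05-093 replicate 1. Its level was therefore at or under the floor of 3 reads in all conditions. Fam20c (ENSMUSG00000025854) encodes the Golgi kinase that phosphorylates secreted proteins, FGF23 and the SIBLING proteins among them, and lies on chromosome 5 at 138754514 to 138810077. It had 5.69 and 6.91 RPKM in vehicle, 3.59 and 3.77 with PTH, and 3.62 and 4.23 with YKL-05-093. Both treatments lay below vehicle without overlap and neither passed, with log2 fold changes of -0.75 (95% interval -1.15 to -0.36, adjusted p = 0.0843 from limma) and -0.67 (-1.09 to -0.24, adjusted p = 0.249). Between the treatments the difference was -0.09 (-0.30 to 0.12, adjusted p = 0.688). Galnt3 (ENSMUSG00000026994), the transferase that shields FGF23 from cleavage, lies on chromosome 2 at 66082766 to 66124994. It had 2.46 and 1.51 RPKM in vehicle, 1.36 and 1.01 with PTH, and 1.6 and 2.15 with YKL-05-093. The PTH libraries were the lowest of the 6, while YKL-05-093 lay within the range of vehicle. The log2 fold change was -0.68 for PTH (-1.30 to -0.06, adjusted p = 0.327 from limma) and -0.06 with YKL-05-093 (-0.69 to 0.58, adjusted p = 0.978). Without vehicle replicate 2 the PTH value was -1.01 and passed (adjusted p = 0.0295). Between PTH and YKL-05-093 Galnt3 differed by -0.62 (SE 0.17, adjusted p = 0.0295 from limma), under the 2-fold limit. It was called in 0 of 14 settings, and the difference ran from -0.82 to -0.42 when single libraries were left out. The adjusted p from limma was 0.0518 with median-ratio scaling, 0.0848 with a pseudocount of 1 and 0.0785 with a filter of 0.1 RPKM. Without a filter it was 0.327, and with the trend on the mean value 0.221.

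Related enzymes were read for comparison. Of the 11 genes of FGF23 processing and reception 7 were tested, and 0 were called in any comparison (median log2 fold change -0.05 for PTH and 0.04 for YKL-05-093). Calls leave out changes under the 2-fold limit. Between PTH and YKL-05-093 these included Fgfr1 (0.58, adjusted p = 2.74e-05 from limma), Fgfr3 (-0.64, 3.11e-05), Furin (0.28, 0.0185) and Galnt3 (-0.62, 0.0295). Fgf23, Pcsk5, Fgfr4 and Kl, the co-receptor Klotho, had at most 3 reads. Of the polypeptide GalNAc transferases 10 were tested and 0 called, and of the M13 metallopeptidases, the family of Phex, 4 were tested and 0 called. Among 10 genes of phosphate transport and pyrophosphate, 7 were tested and, against 0.813% of all genes, 1 was called lower with PTH. This was Phospho1, a phosphatase of matrix vesicles, with 3.66 and 4.12 RPKM in vehicle, 1.09 and 1.23 with PTH, and 2.69 and 3.26 with YKL-05-093 (log2 fold change with PTH -1.67, SE 0.21, adjusted p = 0.0109 from limma). Phospho1 was also called between the treatments, lower with PTH (-1.28, adjusted p = 0.000674 from limma), in 9 of 14 settings. The phosphate transporter genes Slc34a1, Slc34a2 and Slc34a3 had at most 3 reads.

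The secreted-protein kinase family of Fam20c changed in both directions. All 6 genes were tested, and 3 were called higher with PTH (against 1.09% of all genes) and 1 lower (against 0.813%). With YKL-05-093 1 was called lower, where 0.666% of all genes were called in either direction. Fam20a, a pseudokinase that activates FAM20C, had 3.47 and 3.92 RPKM in vehicle, 9.02 and 8.99 with PTH, and 6.9 and 7.79 with YKL-05-093. This was a log2 fold change of 1.27 for PTH (adjusted p = 0.01 from limma) and 0.97 with YKL-05-093 (adjusted p = 0.0696). Fam20c values lay below vehicle in the 4 treated libraries, and Fam20a values above. Fam198a, which encodes a Golgi-associated kinase, had 0.284 and 0.119 RPKM in vehicle, 2.75 and 2.29 with PTH, and 0.627 and 0.453 with YKL-05-093. It passed the filter of 0.5 RPKM in 2 libraries only through the PTH libraries, where it was high. Its log2 fold change with PTH was the largest of the 6 (3.17, adjusted p = 0.00396 from limma), from low vehicle values. The treatments differed by 2.04 (adjusted p = 1.87e-06 from limma), a call that held in 12 of 14 settings and was lost without either PTH library. Pkdcc, a kinase of secreted proteins also called VLK, rose by 1.36 with PTH (adjusted p = 0.011 from limma). Fam198b fell with both PTH (-1.21, adjusted p = 0.0147 from limma) and YKL-05-093 (-1.15, adjusted p = 0.0385), from 4.88 and 4.19 RPKM to 2.01 and 1.78 with PTH and 1.94 and 2.03 with YKL-05-093. Fam20b, a xylose kinase, had 30 and 22.8 RPKM in vehicle and 21 to 22.8 in the treated libraries and was not called. The median of the 6 was 0.51 for PTH and 0.14 for YKL-05-093. Fam20a, Fam198a, Fam198b, Pkdcc, Has2, Phospho1, Tnfrsf9 and Tnfrsf11b were called with PTH in 9 to 11 of 14 settings, none of them with a PTH library left out, and the adjusted p from limma reached 0.0584 (Tnfrsf9) to 0.876 (Tnfrsf11b). Fam198b was called with YKL-05-093 in 7 of 14 settings and not without vehicle replicate 1 or either YKL-05-093 library (adjusted p up to 0.737). Several of these genes are also in the study's own lists from these libraries.

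**Figure D4:**
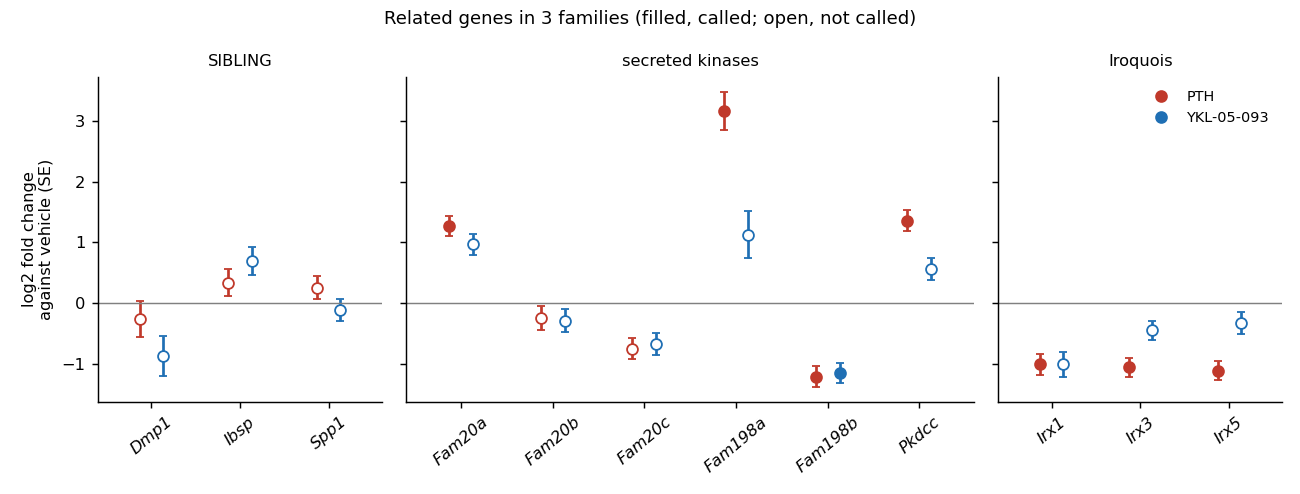
Log2 fold change against vehicle (vertical axis, bars show the SE from limma) for PTH and YKL-05-093 in the SIBLING genes, the secreted-protein kinases and the Iroquois genes that were tested; filled points were called. The 3 Iroquois points for PTH lie near -1, those for YKL-05-093 spread from -1.01 to -0.33, and the kinases lie on both sides of 0.

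Between PTH and YKL-05-093, 4 of the 8 tested genes had an adjusted p under 0.05 (Pdpn and Tnfrsf19 higher with PTH, Irx5 and Galnt3 lower), against 9.97% of all genes, and libraries did not overlap in 6 of 8, against 50%. Without PTH replicate 1 or PTH replicate 2, the adjusted p from limma was 0.127 and 0.12 for Pdpn, with log2 differences of 0.79 and 0.85, and 0.297 and 0.258 for Irx5, with -0.68 and -0.88. Irx5 also failed without YKL-05-093 replicate 2 (log2 difference -0.59). It failed too without the filter on low values (adjusted p = 0.159 from limma) and with the trend on the mean value (adjusted p = 0.0648 from limma). In 1 fit of all 6 libraries, which gives the treatments the wider spread of the vehicle pair, Pdpn had an adjusted p of 0.0719, Irx5 of 0.0887 and Galnt3 of 0.567. The vehicle libraries are shared by both comparisons with vehicle, so the values of the treatments against vehicle are set side by side and were not correlated. The median of all genes tested was -0.03 for PTH, -0.04 for YKL-05-093 and 0.01 between them.

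In vehicle the order of levels was Pdpn, Cd44, Irx5, Tnfrsf19, Fam20c, Galnt3, Phex, Dmp1, Mepe and Fgf23. Galnt3 and Phex overlapped in vehicle, as did Phex and Dmp1, and the other neighbours did not. Mepe (4 and 2 reads) and Fgf23 (0 and 0 reads) lay about the floor of 3 reads, so the order of these genes was not resolved. With PTH, Tnfrsf19 (29.7 ± 2.49 RPKM) stood above Cd44 (18.5 ± 0.847 RPKM), and Irx5 had 5.77 ± 0.552 RPKM. With YKL-05-093 Tnfrsf19 (12.3 ± 1.06 RPKM) and Irx5 (10 ± 1.9 RPKM) lay close together without overlap. Phex came next to Fam20c in both treatments, with overlapping libraries.

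The genes whose pattern over the 6 libraries was most like that of a called gene were found by the root mean square difference of centred log2(RPKM + 0.1) values. For Pdpn they were Ccdc109b (0.067), the kinase gene Pkdcc (0.078) and the osteocalcin gene Bglap2 (0.127). Ccdc109b had 13.7 and 18.9 RPKM in vehicle, 49.4 and 42.9 with PTH, and 26.6 and 27.1 with YKL-05-093. Bglap2 is near-identical to Bglap and its counts may be split between copies. For Irx5 they were Sncaip (0.113), its neighbour Irx3 (0.117) and the Wnt-pathway transcription factor gene Tcf7 (0.126). For Tnfrsf19 they were Osmr (0.087), which encodes the oncostatin M receptor, Lrp8 (0.108) and Slc37a2 (0.133). Osmr had 1.34 and 1.16 RPKM in vehicle, 4.39 and 4.09 with PTH, and 1.39 and 1.61 with YKL-05-093. Pdpn and Tnfrsf19 were less alike, at 0.28, though for both genes the YKL-05-093 libraries stood between vehicle and PTH without overlap.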

How the data were processed

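The authors depleted ribosomal RNA, made directional libraries, mapped reads to mm10 (GRCm38) with STAR, counted them per gene with HTSeq on an Ensembl annotation and deposited RPKM values without a log or scaling between libraries. CASAVA 1.7 is in the submitters' processing notes. Whether the counting used the strand is not given in the sources used here. The reads behind each RPKM were recovered from the whole steps between values (tolerance 1e-05), with whole reads for all 26214 genes above 0. The search was set to find whole reads, and was tested on simulated data. The reads set the depth, the floor of 3 reads and the trend of the variance. Floors cover counting error only, while the 95% intervals are those of limma and rest on the spread between libraries.

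limma 3.58.1 in R 4.3.3 was fitted on log2(RPKM + 0.1) for each comparison with its 4 libraries, over the 14264 genes that reached 0.5 RPKM in 2 or more libraries. Genes with 0 reads in all 4 libraries were dropped. The prior variance followed the mean log2 reads, p-values were adjusted by Benjamini-Hochberg over all genes tested, and calls needed an adjusted p under 0.05 and a change over 2-fold. The pseudocount understates changes of low genes. These settings are those of an earlier analysis, picked there after calls were seen. The genes, lists and tests were chosen with earlier results of these data known. All 10 genes were named, from the related lists those called (at most 3 per list and comparison) and the SIBLING, FAM20 and Iroquois families, and 3 genes most like each called gene. Positions are from GENCODE M21 (GRCm38) and promoters from RefSeq (GRCm38.p6). Alternatives were other pseudocounts (0.01 and 1), filters (none and 0.1 RPKM), variance trend, 1 fit of 6 libraries, replicate block, median-ratio scaling, voom on recovered reads, no fold limit and leaving out each library.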

Additional observations from a re-analysis of the deposited data

How the results depend on the processing

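Of 312 values for single genes under other settings, 292 kept their direction and their side of the limits, 11 lost a call, 3 gained one and 6 changed sign. The number of the 10 genes called for PTH against vehicle was 3, and 0 without the filter on low values, where the adjusted p from limma was 0.112 for Pdpn, 0.0925 for Irx5 and 0.065 for Tnfrsf19. Leaving out single libraries gave 0 to 4 for PTH against vehicle, 0 without either PTH library and 4 (with Galnt3) without vehicle replicate 2, and 0 to 1 for PTH against YKL-05-093, again 0 without either PTH library. With no fold limit 4 genes passed between PTH and YKL-05-093. Apart from the replicate block, the other settings kept the counts within 1.5 times. The changes of sign came from leaving out 1 library. Leaving out each library gave Dmp1 for PTH a range of -0.64 to 0.12 (highest without vehicle replicate 2). Galnt3 for YKL-05-093 ranged from -0.39 to 0.28 (without vehicle replicate 1), with 0.15 without YKL-05-093 replicate 1. Phex between the treatments ranged from -0.89 to 0.44 (without PTH replicate 2), with 0.17 without YKL-05-093 replicate 2. Fam20c between the treatments ranged from -0.20 to 0.02 (without YKL-05-093 replicate 2). The cause was not tested. Fits without 1 library assume that the lone library of a group varies like the other group. Over all genes, the calls for PTH against vehicle were 272, and 0 without the filter, 160 with the trend on the mean value, 440 with the block, 669 without vehicle replicate 2 and 14 without either PTH library. For YKL-05-093 they were 95, and 0 without the filter, 6 with the trend on the mean value, 173 in 1 fit of 6 libraries, 55 with a pseudocount of 1, 57 with a filter of 0.1 RPKM, 215 with the block, and 11 to 321 when single libraries were left out. Between the treatments they were 172, and 98 with a pseudocount of 1, 102 in 1 fit of 6 libraries, 111 without YKL-05-093 replicate 2 and 0 without either PTH library.

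The labels do not say whether same-numbered libraries were handled together. Deviations of same-numbered libraries from their group means correlated at -0.03 to -0.05 across 14264 genes, which are not independent. With 2 libraries per group this correlation cannot settle the pairing, so the replicate block was an alternative only. With the replicate block, 3 genes became 4 for PTH through Phex (log2 fold change 1.30, adjusted p = 7.65e-07 from limma) and 0 became 1 for YKL-05-093, also Phex (1.53, adjusted p = 1.19e-07). The block left 1 residual degree of freedom, and limma then set each gene's SE from the spread of all genes alone: for YKL-05-093 the residual SD of Phex was 0.98 on the log2 scale and the shared SD used in its place was 0.24, while for PTH they were 0.09 and 0.23. A recovered total of 17505798 to 27983585 reads per library limits Mepe and Fgf23, with at most 4 and 2 reads.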
